A study of Mus musculus with 4 samples.

Results

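The 9 genes described here encode molecular chaperones of the cytosol and of the endoplasmic reticulum (ER), and they were taken by name from the 41862 gene columns of 4 single-cell libraries from the mouse central nervous system. Each of the 9 was found as a column. The cytosolic HSP70 family is represented by Hspa1a and Hspa1b, a near-identical heat-inducible pair, and by Hspa8, the constitutive family member. Their partners are Dnajb1, a J-domain cochaperone that stimulates the ATPase of HSP70, and Hsph1, an HSP110 protein that exchanges the nucleotide of HSP70. Hsp90aa1 encodes the inducible cytosolic HSP90, and Hspb1 encodes HSP27, a small heat shock protein that holds unfolding proteins without ATP. Hspa5 encodes BiP, the HSP70 of the ER lumen, and Hsp90b1 encodes GRP94, the HSP90 of the same compartment.

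Cells of C57BL6 mice carrying the Aldh1l1CreERT2-TdTomato reporter, in which Cre is driven from an astrocyte promoter, were sorted for TdTomato and LAMP1 and split by TRAIL, the death ligand encoded by Tnfsf10. The mice had experimental autoimmune encephalomyelitis (EAE) in its peak phase, a model of multiple sclerosis induced with a myelin oligodendrocyte glycoprotein peptide in complete Freund's adjuvant, or were naive. The groups were EAE TRAIL+, EAE TRAIL-, naive TRAIL+ and naive TRAIL-, all LAMP1+, each with 1 inDrops library, a droplet method in which unique molecular identifiers (UMIs) count the captured RNA molecules. The series lists 3 mice per disease state. The labels do not say whether their cells were pooled, so no spread between animals could be measured. Every interval below is an exact 95% interval for counting error only, and no test between groups was possible.

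The libraries held 3984975 UMIs in EAE TRAIL+, 2856696 in EAE TRAIL-, 3967680 in naive TRAIL+ and 3109387 in naive TRAIL-. Of 12987 listed barcodes, 7822 were kept at 500 or more UMIs and no more than 20% mitochondrial UMIs, after 77 doublets were removed. The kept barcodes numbered 1810, 1569, 2225 and 2218 in the same order of libraries, and pairs of libraries shared 22 to 40 barcode names. Although all samples are labelled as astrocytes, astrocyte-like cells, found by their markers, numbered 8, 3, 145 and 34. Microglia-like cells made up 90.2% of EAE TRAIL+ and 19.3% of EAE TRAIL-, and 84.8% of naive TRAIL+ and 14.3% of naive TRAIL-. In both TRAIL- libraries endothelial-like and pericyte-like cells were most common. The transcript of TRAIL itself went against the sort label: Tnfsf10 stood at 16.03 UMIs per 1000000 of the summed UMIs (CPM) in EAE TRAIL+ and 49.1 in EAE TRAIL-, and at 4.41 CPM in naive TRAIL+ and 102.6 in naive TRAIL-. The files hold no protein values, so the libraries are called here by their labels.

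Cytosolic heat shock genes are switched on by HSF1, a transcription factor that is held inactive by chaperones and is released when unfolded proteins accumulate. ER chaperone genes are switched on by a separate pathway, the unfolded protein response, in which ATF6 and XBP1 bind ER stress elements in their promoters. In brain tissue, enzymatic digestion and sorting are known to raise transcripts of immediate early genes such as Fos and Jun and of inducible heat shock genes. All 4 libraries here were made after papain digestion, so every level described below was read after that step.

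The promoters show both kinds of element, and those of 5 members are printed because their levels carry the comparisons below. The sequences come from RefSeq on build GRCm38.p6 and run 5′ to 3′ on the gene's strand, from 250 bases before the annotated start. Capitals mark GAANNTTC, a palindromic core of the heat shock element, in the first 3 sequences, and CCAAT followed after 9 bases by CCACG, the ER stress element, in the last 2; the second mark in Hsp90b1 is that motif on the opposite strand and reads as its reverse complement. Hspa1a lies at chr17:34972107-34972406 on the minus strand, Hspa1b at chr17:34959189-34959488 on the minus strand, Hspb1 at chr5:135887669-135887968 on the plus strand, Hspa5 at chr2:34771840-34772139 on the plus strand and Hsp90b1 at chr10:86705395-86705694 on the minus strand.
Hspa1a: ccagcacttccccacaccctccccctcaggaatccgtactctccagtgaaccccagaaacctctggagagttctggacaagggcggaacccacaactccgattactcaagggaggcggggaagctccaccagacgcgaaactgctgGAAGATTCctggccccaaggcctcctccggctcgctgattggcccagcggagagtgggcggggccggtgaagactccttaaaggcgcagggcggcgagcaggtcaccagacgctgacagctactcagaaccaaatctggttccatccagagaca
Hspa1b: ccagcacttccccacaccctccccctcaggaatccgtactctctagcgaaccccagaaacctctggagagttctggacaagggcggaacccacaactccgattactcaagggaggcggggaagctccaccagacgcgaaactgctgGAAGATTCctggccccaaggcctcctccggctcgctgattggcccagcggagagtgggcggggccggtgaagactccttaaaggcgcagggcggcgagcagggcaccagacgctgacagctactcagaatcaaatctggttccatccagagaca
Hspb1: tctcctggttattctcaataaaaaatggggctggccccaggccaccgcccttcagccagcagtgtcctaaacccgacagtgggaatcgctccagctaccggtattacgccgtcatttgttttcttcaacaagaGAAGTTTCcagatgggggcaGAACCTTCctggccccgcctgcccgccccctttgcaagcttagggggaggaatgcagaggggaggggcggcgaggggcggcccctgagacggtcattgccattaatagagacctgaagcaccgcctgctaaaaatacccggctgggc
Hspa5: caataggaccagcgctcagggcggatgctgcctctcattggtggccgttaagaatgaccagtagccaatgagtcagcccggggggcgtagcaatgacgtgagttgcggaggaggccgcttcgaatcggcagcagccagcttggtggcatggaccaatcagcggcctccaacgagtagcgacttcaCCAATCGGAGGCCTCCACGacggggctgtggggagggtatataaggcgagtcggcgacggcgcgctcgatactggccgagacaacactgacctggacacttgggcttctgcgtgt
Hsp90b1: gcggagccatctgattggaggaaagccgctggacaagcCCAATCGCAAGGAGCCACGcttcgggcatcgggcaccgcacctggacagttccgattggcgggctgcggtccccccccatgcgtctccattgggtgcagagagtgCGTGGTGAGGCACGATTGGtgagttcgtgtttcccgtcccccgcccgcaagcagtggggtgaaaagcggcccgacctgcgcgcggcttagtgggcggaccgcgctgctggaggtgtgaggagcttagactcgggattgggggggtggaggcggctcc

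The Hspa1a and Hspa1b promoters were identical at 296 of 300 bases (98.7%), and each held 1 GAANNTTC match at -104 to -97, where 0 is the annotated start. Hspb1 held 2 matches of the same form, at -117 to -110 and at -97 to -90. GAANNTTC was found in 7.86% of 32851 mouse promoters of this length, searched on both strands. Hsph1 has 2 listed starts whose windows hold the same matches: TTCNNGAA at -54 to -47 and a run of 3 alternating units at 15 to 27, counted from one start, or -33 to -26 and 36 to 48 from the other. The run is a form present in 0.603% of promoters, while TTCNNGAA alone was present in 8.52%. The run is made of TTCNNGAA and GAANNTTC overlapping by 3 bases, so these matches are not separate. The ER stress element was found once in Hspa5, at -65 to -47, and at 2 places in Hsp90b1, at -212 to -194 and at -107 to -89. It was present in 0.119% of promoters, searched on both strands. Neither listed start of Dnajb1 held any of these forms, which says only that these letters are not in those windows. Promoter entries of Hspa8 and Hsp90aa1 were not used here.

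**Figure D1:**
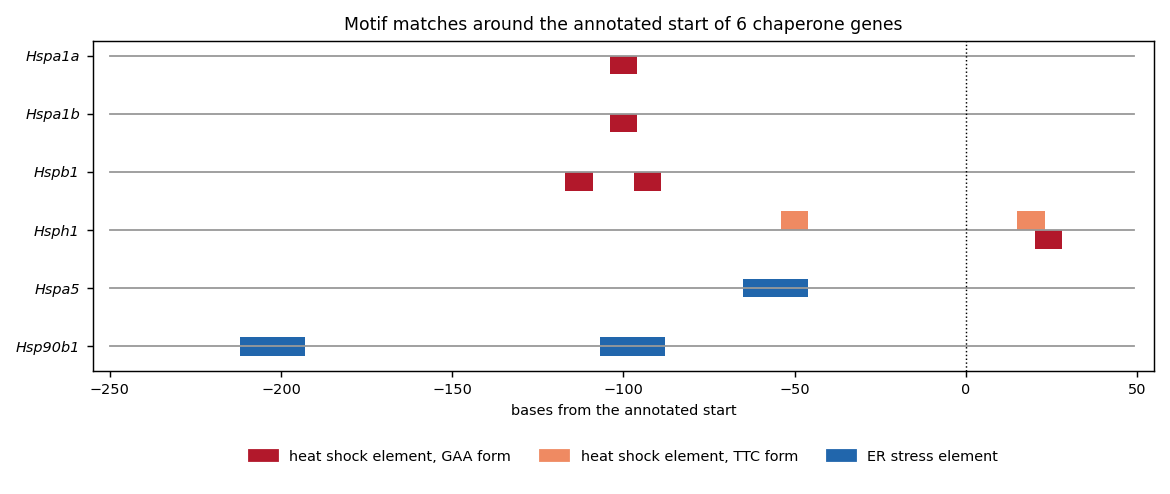
Positions of motif matches in the promoters of 6 chaperone genes, plotted as bases from the annotated start (x axis), 1 gene per line. The heat shock element forms (red, GAANNTTC; orange, TTCNNGAA) lie in Hspa1a, Hspa1b, Hspb1 and Hsph1, and the ER stress element (blue) lies in Hspa5 and Hsp90b1.

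The 9 genes lie on 7 chromosomes of GRCm38, and each is annotated as protein coding. Hspa1a (chr17:34969190-34972156) and Hspa1b (chr17:34956436-34959238) are neighbours on the minus strand, and Hsph1 (chr5:149614287-149636376, minus strand) shares a chromosome with Hspb1 (chr5:135887919-135889563, plus strand). Hspa8 is at chr9:40800984-40810087 and Dnajb1 at chr8:83608193-83612653, both on the plus strand. Hsp90aa1 is at chr12:110690605-110702728 on the minus strand. Hspa5 is at chr2:34771970-34777547 on the plus strand and Hsp90b1 at chr10:86690209-86705509 on the minus strand. The coding sequences of Hspa1a and Hspa1b were identical at 1915 of 1926 bases (99.4%), against 73.9% for Hspa1a and Hspa8 and 59.7% for Hspa1a and Hspa5. Their 3′ untranslated regions, near which this method reads, were identical at 45.6% of 813 positions. No source used here tells how reads that fit both genes were assigned, so the split between them is uncertain and their sum, the Hspa1 pair, is given beside each.

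The Hspa1 pair was highest in endothelial-like cells in each library that held enough of them. Among endothelial-like cells the pair stood at 5783 CPM in EAE TRAIL- (interval 5583 to 5988), 2778 CPM in naive TRAIL+ (2372 to 3234) and 4243 CPM in naive TRAIL- (4122 to 4367). Within the same libraries these levels were 4.05-fold, 2.59-fold and 4.49-fold those of microglia-like cells. Microglia-like cells stood at 2724 CPM in EAE TRAIL+ (2668 to 2781), 1428 in EAE TRAIL- (1334 to 1527), 1071 in naive TRAIL+ (1035 to 1108) and 946 in naive TRAIL- (863 to 1035). The highest microglia-like library therefore reached the lowest endothelial-like one within counting error. Border macrophage-like cells, measured in naive TRAIL+ alone, stood at 2474 CPM (2136 to 2851), which overlaps the endothelial-like value of that library. That value rests on 57 cells, of which 23 held any UMI of the pair. A single cell held 35.1% of the 191 UMIs, so the interval understates the uncertainty.

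Pericyte-like cells held the pair at 691 CPM in EAE TRAIL- and 1342 in naive TRAIL-, and monocyte- or dendritic-like cells at 1299 CPM in EAE TRAIL+ and 480 in EAE TRAIL-. Over all libraries, ranges of these 2 classes overlapped each other and that of microglia-like cells. Within libraries, monocyte- or dendritic-like cells were below microglia-like cells beyond counting error. Their ratios were 0.477 in EAE TRAIL+ (0.434 to 0.523) and 0.336 in EAE TRAIL- (0.2925 to 0.385). The ratio of pericyte-like to microglia-like cells was 0.484 in EAE TRAIL- (0.425 to 0.551) and 1.42 in naive TRAIL- (1.25 to 1.61), so their order differed between libraries. Oligodendrocyte-like cells (168 to 373 CPM) and astrocyte-like cells (166 to 325 CPM) came lower and overlapped each other. Choroid plexus epithelium-like cells were lowest, with 3 UMIs of the pair among 41 cells in EAE TRAIL- and 35 UMIs among 89 cells in naive TRAIL-, or 102.5 CPM. All classes of 1 library shared the same digestion, sort and droplet run, but not all classes were measured in the same libraries. The part of handling in these differences between classes was not tested.

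**Figure D2:**
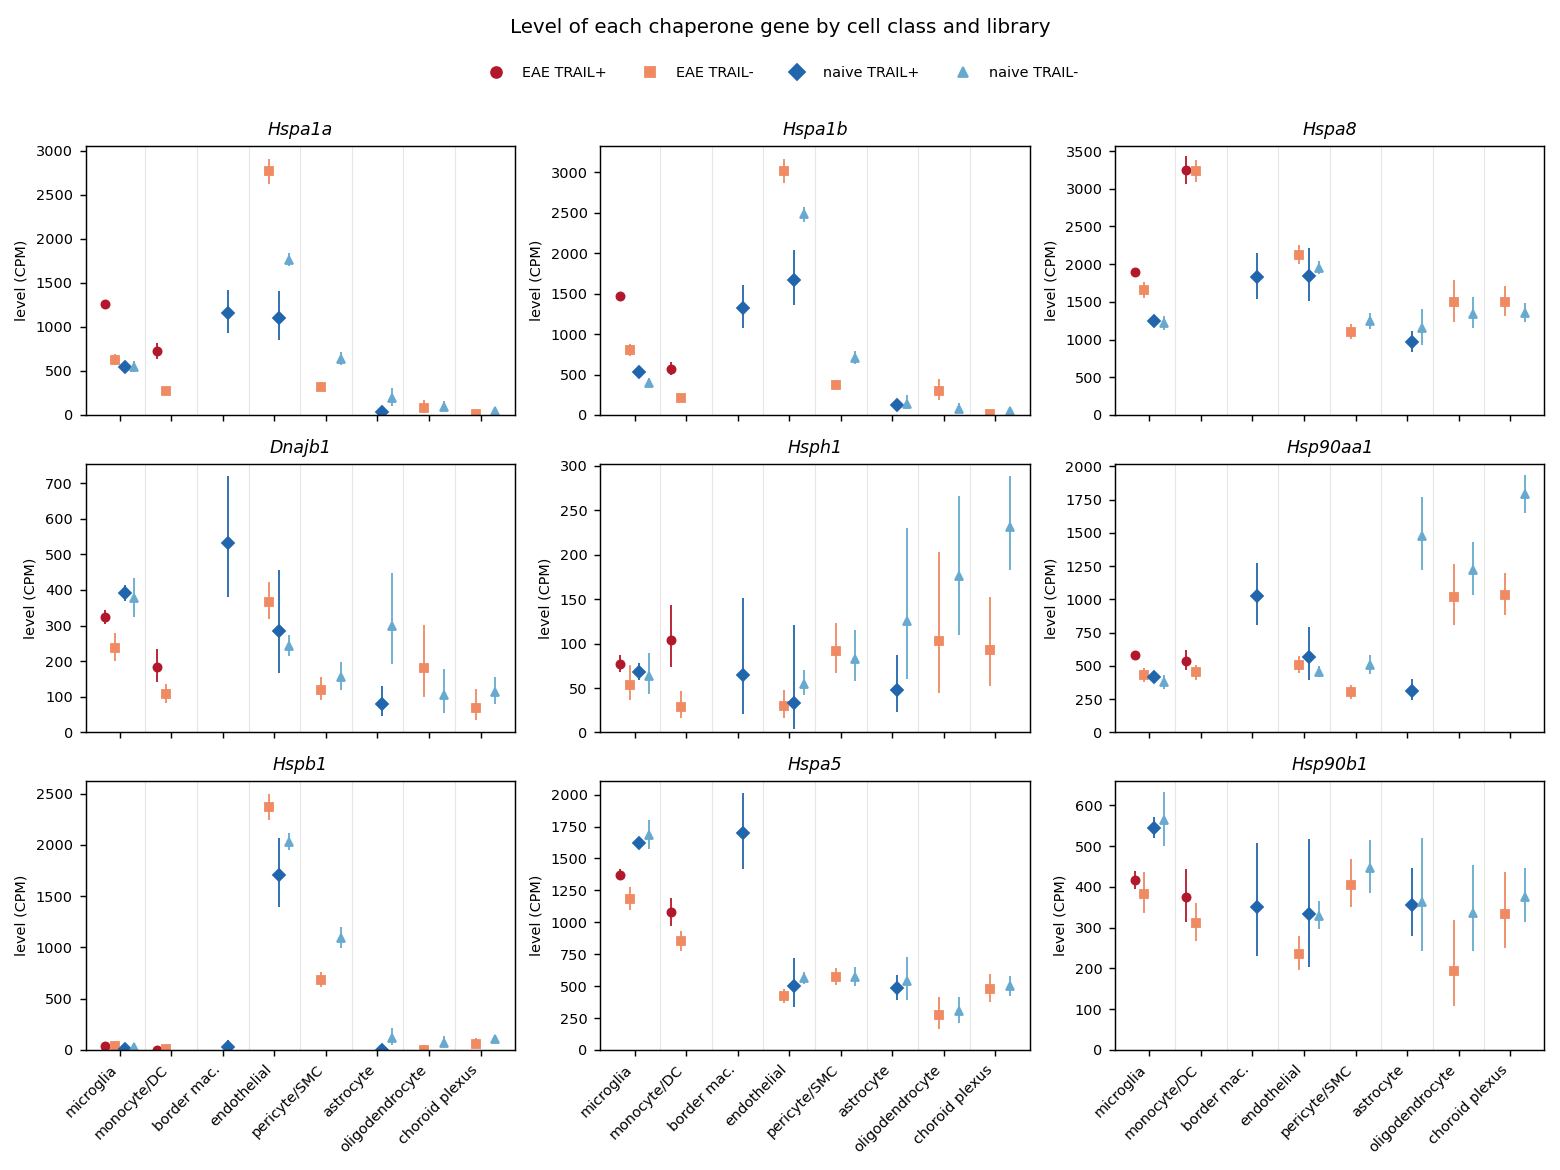
Level of each of the 9 chaperone genes (y axis, CPM, linear from 0) in each cell class (x axis) and library (symbols), with bars for exact 95% Poisson intervals; each gene has its own scale. By median Hspa1a, Hspa1b and Hspb1 are highest in endothelial-like cells, and Hspa5 is highest in border macrophage-like and microglia-like cells.

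Neither gene of the pair dominated in the well-counted classes, but the share of Hspa1a differed between libraries beyond counting error. Its share in microglia-like cells was 46.2% (EAE TRAIL+) and 43.7% (EAE TRAIL-) in disease, while naive cells gave 50.6% (TRAIL+) and 57.7% (TRAIL-). In endothelial-like cells it was 47.8% in EAE TRAIL- and 41.6% in naive TRAIL-, the opposite order of disease states. In pericyte-like cells it was 46.3% in EAE TRAIL- and 47.4% in naive TRAIL-, with overlapping intervals.

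Hspa8, the constitutive HSP70, was highest in monocyte- or dendritic-like cells. It stood at 3247 CPM in EAE TRAIL+ and 3230 in EAE TRAIL- cells of that class, above every other class. The other classes lay between 968 CPM in naive TRAIL+ astrocyte-like cells and 2123 CPM in EAE TRAIL- endothelial-like cells, and neighbouring classes in this order overlapped. Dnajb1 stood at 531 CPM (381 to 721) in border macrophage-like cells, which was not resolved from microglia-like cells of the same library (ratio 1.36, 0.972 to 1.86). Microglia-like cells at 238 to 390 CPM and endothelial-like cells at 243 to 367 CPM also overlapped. Their order differed between libraries, with an endothelial-like to microglia-like ratio of 1.54 in EAE TRAIL- (1.24 to 1.93) and 0.6465 in naive TRAIL- (0.535 to 0.783). By median Dnajb1 was lowest in choroid plexus epithelium-like cells, at 68.0 CPM in EAE TRAIL- and 114 in naive TRAIL-.

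By median Hsp90aa1 and Hsph1 had another order, with the pair's lowest class at the top. Hsp90aa1 stood at 1032 CPM in EAE TRAIL- and 1790 in naive TRAIL- choroid plexus epithelium-like cells, and at 1017 and 1223 CPM in oligodendrocyte-like cells of the same libraries. Astrocyte-like cells stood at 313 CPM in naive TRAIL+ and 1476 in naive TRAIL-. Border macrophage-like cells stood at 1023 CPM in naive TRAIL+ (810 to 1275), so these classes overlapped. In microglia-like cells it ranged from 378 to 579 CPM and in endothelial-like cells from 456 to 569 CPM. By median Hsph1 was likewise highest in choroid plexus epithelium-like cells, at 92.7 CPM in EAE TRAIL- and 231 in naive TRAIL-, and lowest in endothelial-like cells, at 29.3 to 54.6 CPM. Neither end stood apart. Oligodendrocyte-like cells held 103 CPM of Hsph1 in EAE TRAIL-, above the choroid plexus epithelium-like value there, and 176 in naive TRAIL-. Microglia-like cells held 53.5 to 76.8 CPM, which overlaps the endothelial-like range. Between the ends, neighbouring classes overlapped within counting error. The endothelial-like values of Hsph1 rested on 16 UMIs in EAE TRAIL-, 2 in naive TRAIL+ and 60 in naive TRAIL-.

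Hspb1 was highest in the vessel-associated classes. Endothelial-like cells held 2366 CPM in EAE TRAIL- (2239 to 2499), 1707 CPM in naive TRAIL+ (1392 to 2072) and 2031 CPM in naive TRAIL- (1948 to 2118). Pericyte-like cells followed at 685 CPM in EAE TRAIL- (612 to 764) and 1093 CPM in naive TRAIL- (995 to 1198), a range that did not overlap the endothelial one. Every other class lay at or below 113 CPM, and microglia-like cells lay between 14.2 and 37.8 CPM. The endothelial-like level was 67.4-fold that of microglia-like cells in EAE TRAIL-, 121-fold in naive TRAIL+ and 68.4-fold in naive TRAIL-.

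Shares of cells gave the same contrast for Hspb1. After every cell was thinned to 500 UMIs, 57.2% of endothelial-like cells in EAE TRAIL-, 52.7% in naive TRAIL+ and 53.4% in naive TRAIL- held an Hspb1 UMI. The share was 1.16% in EAE TRAIL+, 0.993% in EAE TRAIL-, 0.371% in naive TRAIL+ and 1.26% in naive TRAIL- microglia-like cells, whose median depth before thinning was higher (1529 to 1896 UMIs, against 894 to 1039). Without thinning, the microglia-like shares were 1.54% to 3.77% and the endothelial-like ones 68.5% to 72.7%. The part of free RNA in the microglia-like share was not tested. In EAE TRAIL+ the 1% of microglia-like cells with the most Hspb1 UMIs held 67.7% of its 124 UMIs, and endothelial markers summed to 92.1 CPM in EAE TRAIL+ and 96.2 in naive TRAIL+ microglia-like cells.

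Hspa5, the BiP gene, was highest in border macrophage-like and microglia-like cells, the classes that were also highest for Dnajb1 by median. Hspa5 stood at 1697 CPM in border macrophage-like cells (1419 to 2014) and at 1374 CPM in EAE TRAIL+, 1184 in EAE TRAIL-, 1622 in naive TRAIL+ and 1684 in naive TRAIL- microglia-like cells. Monocyte- or dendritic-like cells followed at 1077 CPM in EAE TRAIL+ and 850.5 in EAE TRAIL-, below every microglia-like value. Oligodendrocyte-like cells were lowest at 270.2 CPM in EAE TRAIL- and 304 in naive TRAIL-. The remaining classes lay between 420 and 572 CPM and mostly overlapped, except that EAE TRAIL- endothelial-like cells were below EAE TRAIL- pericyte-like cells (ratio 0.734, 0.613 to 0.879). Hsp90b1 spread less, between 193 CPM in EAE TRAIL- oligodendrocyte-like cells and 564 CPM in naive TRAIL- microglia-like cells, with overlapping ranges in neighbouring classes. The coding sequences of Hsp90b1 and Hsp90aa1 were identical at 53.9% of bases.

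The pair's UMIs were concentrated in few cells, but this measure depends on the level itself. Where few cells hold any UMI, few cells must hold most of them. At 500 UMIs per cell, 55 of 454 EAE TRAIL- pericyte-like cells held any UMI of the pair. The order of classes given here was therefore not separated from the order of their levels. With every cell at 500 UMIs, the 10% of cells with the most UMIs of the pair held 65.3% of them in EAE TRAIL+, 81.8% in EAE TRAIL-, 71.6% in naive TRAIL+ and 66.3% in naive TRAIL- microglia-like cells. In endothelial-like cells that share was 43.9% in EAE TRAIL-, 53.1% in naive TRAIL+ and 48.9% in naive TRAIL-. In pericyte-like cells it was 93.0% in EAE TRAIL- and 84.1% in naive TRAIL-. Because UMIs of 1 cell are not independent draws, the counting intervals of the pair understate the uncertainty.

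Most endothelial-like cells held at least 1 UMI of the pair at that depth, 57.2% in EAE TRAIL-, 50.9% in naive TRAIL+ and 53.8% in naive TRAIL-. Among pericyte-like cells the shares were 12.1% in EAE TRAIL- and 19.4% in naive TRAIL-. Among microglia-like cells 37.8% (35.4 to 40.2%) held one in EAE TRAIL+, 22.5% (17.9 to 27.7%) in EAE TRAIL-, 24.9% (23.0 to 26.9%) in naive TRAIL+ and 26.1% (21.4 to 31.3%) in naive TRAIL-. In choroid plexus epithelium-like cells of naive TRAIL-, with a median of 3211 UMIs before thinning, the share was 2.25% (2 of 89 cells, 0.273 to 7.88%). In EAE TRAIL- no choroid plexus epithelium-like cell of 41 held one, which leaves an upper bound of 8.60%, and neither TRAIL+ library had enough of these cells for such a comparison. Without thinning, the microglia-like shares were 56.8%, 35.8%, 44.3% and 43.7% in the same order of libraries.

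Among microglia-like cells, those with many copies were most frequent in EAE TRAIL+. At least 5 of 500 UMIs came from the pair in 10.5% of EAE TRAIL+ cells (172 of 1632) and 4.97% of EAE TRAIL- cells (15 of 302), against 2.28% of naive TRAIL+ cells (43 of 1887) and 2.20% of naive TRAIL- cells (7 of 318). The highest single cells held 34 UMIs of the pair in EAE TRAIL+, 25 in EAE TRAIL-, 26 in naive TRAIL+ and 12 in naive TRAIL-.

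**Figure D3:**
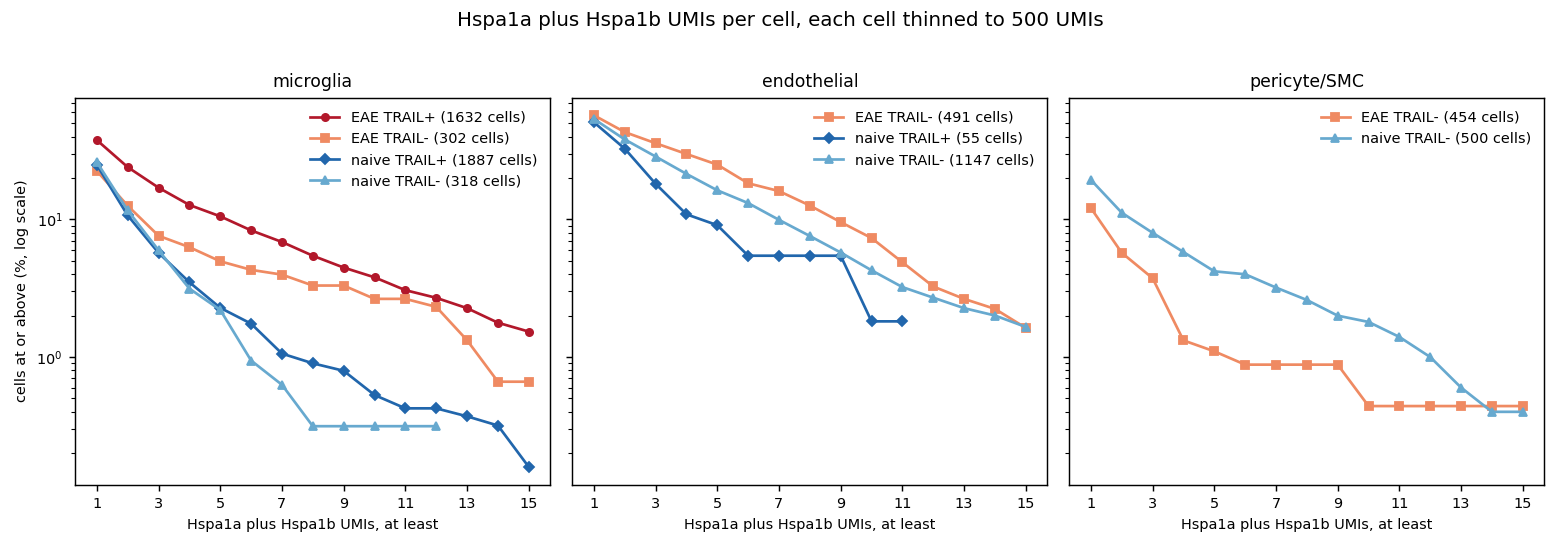
Share of microglia-like, endothelial-like and pericyte-like cells (y axis, percent, log scale) that hold at least a given number of Hspa1a plus Hspa1b UMIs (x axis), 1 line per library, with every cell thinned to 500 UMIs. Among microglia-like cells the EAE TRAIL+ line lies above the other libraries, at 10.5% for 5 UMIs or more, and endothelial-like lines start at 50.9% or more.

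Hspa1b was found more often in cells that held an Hspa1a UMI than in cells without one. Among microglia-like cells of EAE TRAIL+, thinned as above, Hspa1b was seen in 54.7% of cells with an Hspa1a UMI and 13.9% of cells without one. The shares were 48.9% and 8.24% in EAE TRAIL-, 27.2% and 10.4% in naive TRAIL+ and 21.2% and 11.7% in naive TRAIL-, where the 2 intervals overlapped. Endothelial-like cells gave 66.7% and 22.8% in EAE TRAIL- and 56.9% and 26.9% in naive TRAIL-. Hspa5 did not share this pattern: in EAE TRAIL+ microglia-like cells it was seen in 44.7% of cells with Hspa1a and 40.6% of cells without it, with overlapping intervals. Fos, an immediate early gene, was seen in 36.1% of EAE TRAIL- pericyte-like cells with Hspa1a and 4.79% of those without it. The shares were 53.3% and 10.45% in naive TRAIL- pericyte-like cells. In endothelial-like cells they were 59.4% and 36.0% in EAE TRAIL-, and 61.1% and 53.9% in naive TRAIL-, where the intervals overlapped. Monocyte- or dendritic-like cells of EAE TRAIL+ gave 65.6% and 43.75%, with overlapping intervals. Among microglia-like cells the Fos shares with and without Hspa1a were closer than in pericyte-like cells. They were 65.5% and 59.1% in EAE TRAIL+, and 53.2% and 38.0% in EAE TRAIL-. Naive microglia-like cells gave 78.7% and 77.1% in TRAIL+, and 71.2% and 75.2% in TRAIL-. Reads that fit both near-identical genes may contribute to the first comparison, and their part in it was not tested.

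In microglia-like cells of the TRAIL+ fraction, the cytosolic HSP70 genes were higher in EAE and the ER chaperones were not. Hspa1a stood at 1259 CPM in EAE TRAIL+ and 542 in naive TRAIL+, a ratio of 2.32 (2.19 to 2.46). Hspa1b stood at 1465 CPM in EAE TRAIL+ and 529 in naive TRAIL+, a ratio of 2.77 (2.62 to 2.93). Hspa8 stood at 1899 CPM in EAE TRAIL+ and 1251 in naive TRAIL+, a ratio of 1.52 (1.46 to 1.58). These 3 of the 8 members compared, those with a mean of at least 50 CPM and 40 UMIs, were at least 1.5-fold higher and none was 1.5-fold lower, where 13.9% of 3205 genes were at least 1.5-fold apart in either direction. The pair as a whole was 2.54-fold higher (2.44 to 2.65). As a description, 90% of all genes compared in these cells had log2 ratios between -0.59 and 0.72.

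The partners of HSP70 differed less in the same comparison. Dnajb1 was at 323 CPM in EAE TRAIL+ and 390 in naive TRAIL+ (ratio 0.828), and Hsph1 at 76.8 CPM and 67.9 CPM (ratio 1.13, 0.939 to 1.37). Hsp90aa1 was at 579 CPM in EAE TRAIL+ and 421 in naive TRAIL+, a ratio of 1.38 that stays under the 1.5-fold mark. Hspa5 had 1374 CPM (EAE TRAIL+) and 1622 CPM (naive TRAIL+) (0.847, 0.813 to 0.882), and Hsp90b1 had 417 CPM and 546 CPM (0.765, 0.712 to 0.822). Both ER chaperones were thus lower in EAE beyond counting error and by less than 1.5-fold. Hspb1, at 37.8 and 14.2 CPM, was below the level compared.

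Other chaperone genes, taken from lists of pathway members, gave few differences in these cells. Of 9 compared genes of the HSP70, HSP110 and cofactor list, Bag3, an HSP70 nucleotide exchange factor, was 1.87-fold higher and Hspa4, another HSP110 protein, was lower at a ratio of 0.665. Fkbp5, an HSP90 cochaperone that glucocorticoids are known to induce, was 1.90-fold higher, 1 of 8 HSP90 genes compared. Hspe1, the mitochondrial HSP10, was 2.01-fold higher, 1 of 3 mitochondrial chaperones compared. None of 14 ER chaperones and folding enzymes, 12 unfolded protein response genes and 7 TRiC chaperonin subunits was 1.5-fold apart. The median log2 ratio was 0.03 for the HSP70 list and -0.11 for the ER list, against -0.06 for all genes.

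Immediate early genes did not follow the pair in this comparison. Of 22 compared, 7 were lower in EAE TRAIL+ and none higher, with Jund at a ratio of 0.488 and Btg2 at 0.531. Fos was at 3555 CPM in EAE TRAIL+ and 5094 in naive TRAIL+, and the list summed to 45370 CPM in EAE TRAIL+ and 61450 in naive TRAIL+. The part of tissue handling in the pair's level was not tested. The median share of mitochondrial UMIs was 3.79% in EAE TRAIL+ and 3.07% in naive TRAIL+ microglia-like cells, and the median depth was 1885 and 1551 UMIs.

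The microglia-like class was made of 3 clusters, and 1 of them belonged almost wholly to EAE. Cluster 4, led by C4b, Hcar2 and Cd74, held 703 cells in EAE TRAIL+ and 189 in EAE TRAIL-, with all 15 microglial markers detected but none among its first 10 genes. In EAE TRAIL+ the pair stood at 1984 CPM in cluster 0, 3070 in cluster 1 and 3236 in cluster 4, while in naive TRAIL+ it stood at 1048 CPM in cluster 0 and 1095 in cluster 1. Every EAE TRAIL+ cluster was therefore above both naive TRAIL+ clusters. Without cluster 4, an alternative chosen after seeing the data, the pair was 2.15-fold higher.

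**Figure D4:**
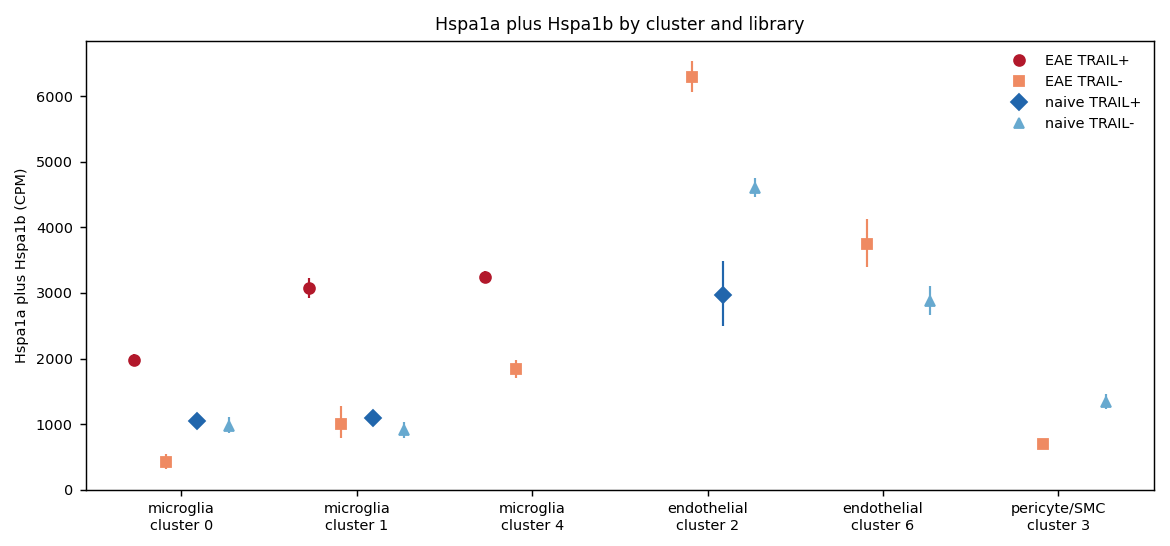
Level of Hspa1a plus Hspa1b (y axis, CPM) in the microglia-like, endothelial-like and pericyte-like clusters (x axis), by library (symbols), with exact 95% Poisson intervals. In microglia-like cluster 4 the values are 3236 in EAE TRAIL+ and 1842 in EAE TRAIL-, with too few naive cells for a value, and in cluster 0 EAE TRAIL- lies at 417, below both naive libraries.

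In the TRAIL- fraction the microglia-like difference rested on that cluster. Hspa1b stood at 804 CPM in EAE TRAIL- and 400 in naive TRAIL- (ratio 2.01, 1.70 to 2.38). Hspa1a stood at 624 CPM in EAE TRAIL- and 546 in naive TRAIL- (1.14, 0.975 to 1.34), and the pair at 1428 and 946 CPM (1.51, 1.35 to 1.69). Leaving cluster 4 out turned the pair's ratio to 0.653 and that of Hspa1b to 0.542. In cluster 0 the pair was at 417 CPM in EAE TRAIL- (53 cells) and 977 CPM in naive TRAIL-, in cluster 1 at 1009 and 907 CPM, and in cluster 4 at 1842 CPM in EAE TRAIL-. The direction of the pair in TRAIL- microglia-like cells thus depended on which cells were counted.

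Dnajb1 was lower in EAE TRAIL- microglia-like cells, at 238 CPM against 376 CPM in naive TRAIL- (0.631, 0.505 to 0.789). It and Hspa1b were the 2 of 8 members past 1.5-fold, where 40.1% of 3266 genes were that far apart. Hspa5 stood at 1184 CPM in EAE TRAIL- and 1684 in naive TRAIL- (0.703), and Hsp90b1 at 383 and 564 CPM (0.679), both lower beyond counting error but under the 1.5-fold mark. Hspa8 was at 1659 CPM in EAE TRAIL- and 1215 in naive TRAIL- (1.37), and Hsp90aa1 and Hsph1 had intervals that included 1.

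Of the unfolded protein response list, 4 of 10 genes were lower and 1 was higher in the same comparison, a share near the 40.1% of all genes past 1.5-fold. Herpud1, an ER-associated degradation factor, was at 321 CPM in EAE TRAIL- and 769.9 in naive TRAIL- (0.417, 0.349 to 0.497), Edem1, which passes misfolded glycoproteins to degradation, was at a ratio of 0.482 and Ppp1r15a, a phosphatase subunit that restores translation, at 0.613. Atf6, an ER stress sensor, was the exception at 2.25-fold higher. The list's median log2 ratio was -0.41, against -0.08 for all genes. Of 8 HSP70 cofactors compared, 3 were lower, among them Dnajb4 (0.418) and Dnaja1 (0.464), and 1 was higher, Dnaja2 (1.61, 1.05 to 2.52), all J-domain proteins, again near that share. In these cells 15 of 22 immediate early genes were lower as well and none higher, with Jun at 1786 CPM in EAE TRAIL- and 5386 in naive TRAIL-, and their part in the result was not tested. Endothelial markers summed to 355 CPM in EAE TRAIL- and 352 in naive TRAIL- microglia-like cells, and pericyte markers to 279 and 196 CPM.

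**Figure D5:**
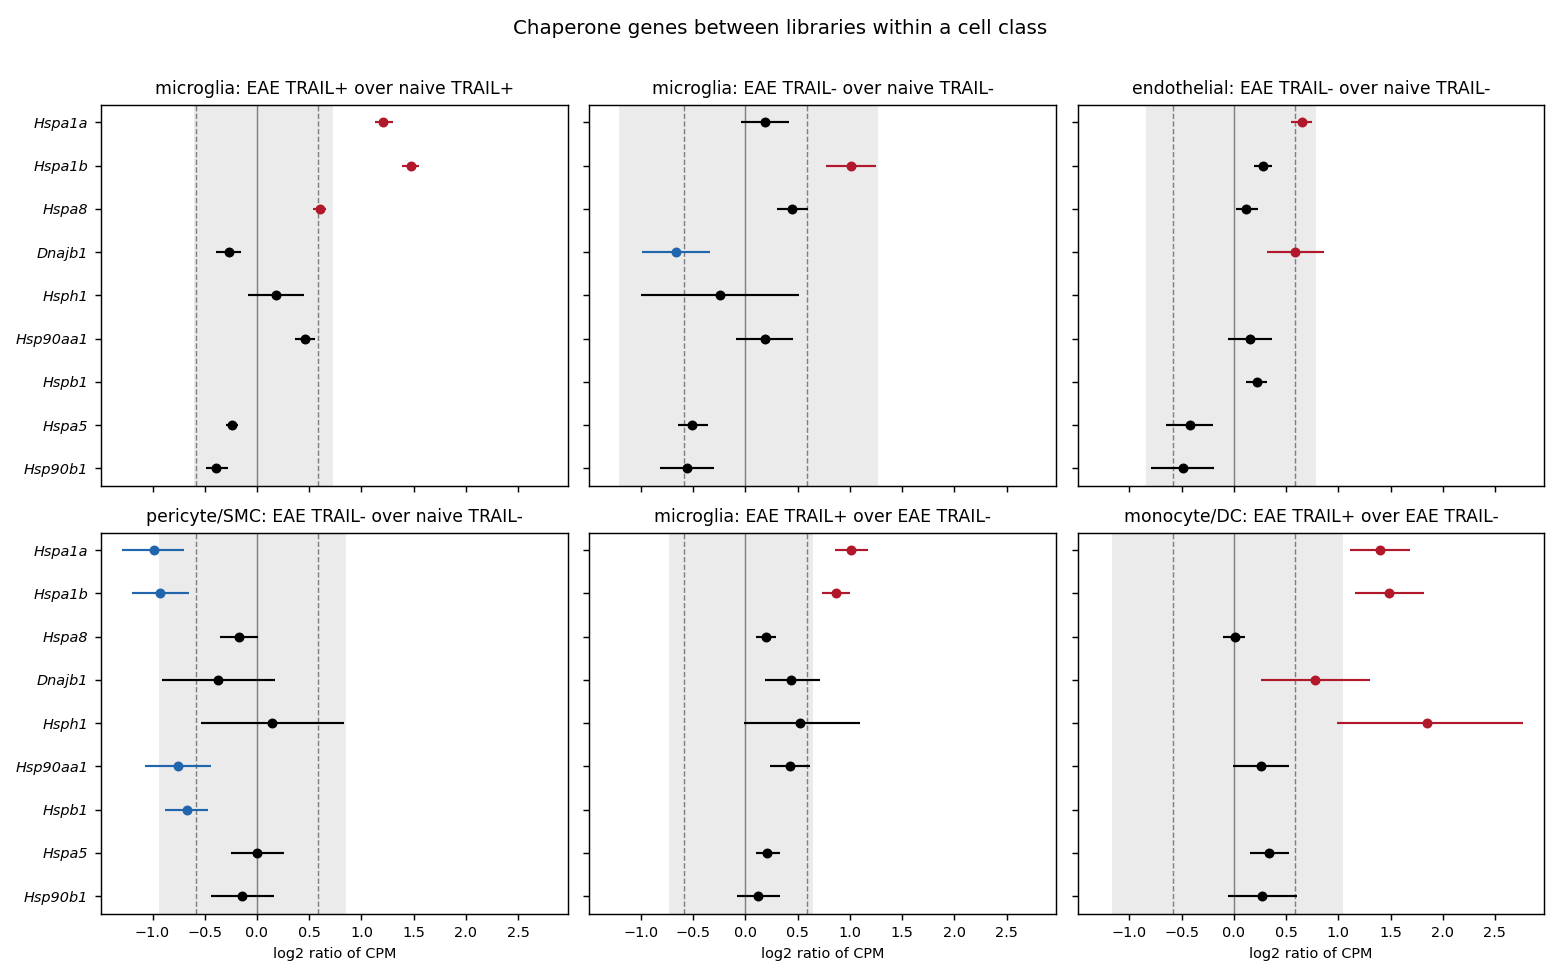
Ratios of the chaperone genes in 6 comparisons within a cell class (x axis, log2 ratio of CPM, genes below the compared level left out), with exact 95% intervals; dashed lines mark 1.5-fold, red and blue points are past it, and the grey band holds the middle 90% of all genes compared. The Hspa1 genes lie to the right in TRAIL+ microglia-like cells, at ratios of 2.32 and 2.77, and to the left in pericyte-like cells, at 0.503 and 0.526.

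Endothelial-like cells of the TRAIL- fraction had more Hspa1a and Dnajb1 in EAE. Hspa1a stood at 2766 CPM in EAE TRAIL- and 1765 in naive TRAIL- (1.57, 1.46 to 1.68), and Dnajb1 at 367 and 243 CPM (1.51, 1.25 to 1.82). Hspa1b was at 3017 CPM in EAE TRAIL- and 2479 in naive TRAIL- (1.22), and the pair as a whole at a ratio of 1.36 (1.30 to 1.43). Both endothelial clusters showed the direction of the pair, at 6295 CPM in EAE TRAIL- and 4601 in naive TRAIL- for cluster 2, and at 3749 and 2884 CPM for cluster 6, which is led by the arterial genes Sema3g and Gkn3. These 2 of 8 members past 1.5-fold stand against 21.7% of 3633 genes that far apart, and both were close to that mark.

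The remaining endothelial members differed less. Hspb1 was at 2366 CPM in EAE TRAIL- and 2031 in naive TRAIL- (1.17, 1.09 to 1.25), and Hspa8 at 2123 and 1951 CPM (1.09). Hspa5 was lower in EAE at 0.746 (0.638 to 0.869) and Hsp90b1 at 0.714 (0.579 to 0.876), the same direction as in microglia-like cells. Hspb8, which works with Bag3 in clearing misfolded proteins, was the only other small heat shock protein compared, at 2.45-fold higher (1.72 to 3.51). Bag3 itself was at 0.465, 1 of 3 lower and none higher among 10 HSP70 list genes. Of 13 ER chaperones and folding enzymes, 2 were lower and 1 higher, with Serpinh1, the collagen chaperone of the ER, at 0.524. Xbp1 was 1.65-fold higher, 1 of 8 unfolded protein response genes compared. Of 9 HSP90 genes 2 were lower, and of 8 TRiC subunits 2 were lower and 1 higher. These counts stand beside 21.7% of all genes past 1.5-fold. The list of immediate early genes summed to 39330 CPM in EAE TRAIL- and 47480 in naive TRAIL-, with 1 of 22 higher and 2 lower.

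Pericyte-like cells went the other way. Hspa1a stood at 320 CPM in EAE TRAIL- and 637 in naive TRAIL- (0.503, 0.409 to 0.616), Hspa1b at 371 and 706 CPM (0.526, 0.434 to 0.637), and the pair at 691 and 1342 CPM (0.515, 0.448 to 0.591). Hsp90aa1 was at 301 CPM in EAE TRAIL- and 508 in naive TRAIL- (0.592, 0.475 to 0.735), and Hspb1 at 685 and 1093 CPM (0.627, 0.542 to 0.724). These 4 of 9 members were lower and none higher, where 23.6% of 3840 genes were at least 1.5-fold apart. Hspa5 was level, at 572 CPM in EAE TRAIL- and 570.2 in naive TRAIL- (1.003, 0.839 to 1.199), and Hsp90b1 was at 0.908 (0.738 to 1.12).

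Pericyte-like cells with many UMIs of the pair were few. At 500 UMIs per cell, 5 of 454 EAE TRAIL- cells (1.10%) held 5 or more UMIs of the pair, against 21 of 500 naive TRAIL- cells (4.2%). Cells with any UMI of the pair were also fewer, 55 of 454 in EAE TRAIL- and 97 of 500 in naive TRAIL-. An Hspb1 UMI was held by 22.25% of EAE TRAIL- and 33.8% of naive TRAIL- cells. Fos was also lower, at 559 CPM in EAE TRAIL- and 1133 in naive TRAIL-, and Jun at 380 and 580 CPM, while Zfp36 was 1.88-fold higher, so that 3 of 19 immediate early genes were higher and 3 lower. The median mitochondrial share was 6.53% in EAE TRAIL- and 4.83% in naive TRAIL- pericyte-like cells, and its part in the result was not tested. Of the other lists, 3 of 8 TRiC subunits were lower, led by Cct8 at 0.505, and none of 18 ER chaperones and folding enzymes was 1.5-fold apart. Herpud1 was lower here too, at 0.491.

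The choroid plexus and oligodendrocyte comparisons rested on few cells. In choroid plexus epithelium-like cells Hsph1 was at 92.7 CPM in EAE TRAIL- and 231 in naive TRAIL- (0.401, 0.214 to 0.702), and Hsp90aa1 at 1032 and 1790 CPM (0.577, 0.483 to 0.686). Dnajb1 (0.595) and Hspb1 (0.571) were also past the mark, on 11 and 10 UMIs in EAE TRAIL-, and their intervals included 1. These 4 of 7 members were lower, against 31.2% of 2195 genes past 1.5-fold, with the cochaperone genes Chordc1 at 0.387 and Cacybp at 0.425. In oligodendrocyte-like cells, 35 in EAE TRAIL- and 75 in naive TRAIL-, only Hsp90b1 of 4 members was past 1.5-fold (0.575, 0.296 to 1.06), where 46.7% of 808 genes were. The pair stood at 29 UMIs in EAE TRAIL- and 21 UMIs in naive TRAIL-, a ratio of 2.22 (1.23 to 4.10).

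The sort fractions were compared within a class and disease state, with Tnfsf10 at 16.5 CPM in EAE TRAIL+ and 41.8 in EAE TRAIL- microglia-like cells, against the labels. In those cells Hspa1a was 2.02-fold (1.81 to 2.25) and Hspa1b 1.82-fold (1.66 to 2.01) higher in EAE TRAIL+ than in EAE TRAIL-, and the pair 1.91-fold. They were the 2 of 8 members past 1.5-fold, where 15.1% of 3230 genes were. Dnajb1 (1.36), Hsp90aa1 (1.35) and Hspa5 (1.16) were higher beyond counting error and below the mark. Of 9 HSP70 cofactors compared 4 were higher, led by Bag3 at 1.997, Dnajb4 at 1.91 and Dnaja1 at 1.68. Endothelial markers summed to 92.1 CPM in EAE TRAIL+ and 355 in EAE TRAIL-, and pericyte markers to 20.4 and 279 CPM. Of the immediate early genes 8 of 22 were higher and 1 lower, with Fos at 3555 CPM in EAE TRAIL+ and 1933 in EAE TRAIL-, and their part in the result was not tested. Cluster 4 made up 703 of 1632 EAE TRAIL+ and 189 of 302 EAE TRAIL- cells, and without it the pair was 3.73-fold higher and 4 members were past the mark.

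Naive microglia-like cells of the 2 fractions differed little in these genes. None of 8 members was 1.5-fold apart between naive TRAIL+ and naive TRAIL-, where 9.57% of 3177 genes were. The pair stood at 1071 CPM in naive TRAIL+ and 946 in naive TRAIL- (1.13, 1.03 to 1.25), and Hspa5 at 1622 and 1684 CPM (0.963, 0.896 to 1.04). Their immediate early sums were 61450 CPM in naive TRAIL+ and 61090 in naive TRAIL-. No test of the difference between the EAE and naive comparisons was possible with 1 library each.

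Monocyte- or dendritic-like cells were compared between the EAE fractions only, since naive libraries held 19 and 16 of them. Hspa1a stood at 726 CPM in EAE TRAIL+ and 276 in EAE TRAIL- (2.64, 2.16 to 3.22), Hspa1b at 573 and 204 CPM (2.81, 2.23 to 3.54), Dnajb1 at 184 and 107 CPM (1.71, 1.196 to 2.46) and Hsph1 at 104 and 28.9 CPM (3.60, 1.98 to 6.80). These 4 of 8 members were higher, where 32.5% of 3149 genes were past 1.5-fold. Hspa8 was level at 3247 CPM in EAE TRAIL+ and 3230 in EAE TRAIL- (1.01, 0.934 to 1.08). Among ER chaperones and folding enzymes, 6 of 17 genes were higher and 1 lower, among them Fkbp2, a prolyl isomerase, at 3.67-fold and Sdf2l1, a BiP cofactor, at 2.38-fold. Hspa5 itself was 1.27-fold higher (1.11 to 1.45).

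Other values moved with that comparison. Microglial markers summed to 10430 CPM in EAE TRAIL+ and 2778 in EAE TRAIL- monocyte- or dendritic-like cells, and the class's own markers to 16610 and 22950 CPM. Assigning each cell to the marker list with the largest share of its UMIs gave a pair ratio of 1.77, and requiring at least 1% own markers gave 1.93, against 2.71. Of the immediate early genes 9 of 22 were higher and none lower, with Egr1 4.85-fold higher. Their parts in the result were not tested.

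In naive endothelial-like cells, 55 in TRAIL+ and 1147 in TRAIL-, Hspa1a was lower in naive TRAIL+ at 1105 CPM against 1765 CPM in naive TRAIL- (0.626, 0.482 to 0.800), the only one of 8 members past the mark, where 42.4% of 3623 genes were. Microglial markers summed to 2644 CPM in those naive TRAIL+ cells and 420 CPM in naive TRAIL- ones, and their part was not tested. In naive astrocyte-like cells, the class that the reporter was meant to mark, Hsp90aa1 stood at 313 CPM in naive TRAIL+ and 1476 in naive TRAIL- (0.212, 0.155 to 0.289) and Dnajb1 at 80.7 and 300.2 CPM (0.269, 0.136 to 0.522). These 2 of 5 members were lower, where 46.8% of 1270 genes were past 1.5-fold. Hsp90ab1, the constitutive HSP90, and Cryab, a small heat shock protein, were lower as well, at 0.403 and 0.295. Assigning cells by their largest marker share turned the Dnajb1 ratio to 1.01. Of 20 immediate early genes 12 were lower with them, led by Ccn1 and Klf2. Microglial markers summed to 8124 CPM in naive TRAIL+ and 1363 in naive TRAIL- astrocyte-like cells, and endothelial markers to 80.7 and 901 CPM. Their part in the result was not tested. Hspa5 (484 and 538 CPM) and Hsp90b1 (0.981, 0.631 to 1.56) gave intervals that included 1.

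Across the 18 class-by-library profiles, the members fell into groups by their likeness, given as Pearson's r of log2(CPM + 1) and as a description only, because profiles of 1 library share its depth and handling. The pair was most like Grap (0.90), Brd2 (0.88), Klf4 (0.87), Slc6a6 (0.86) and Msl2 (0.86), and among members most like Dnajb1 (0.77). Hspa5 was most like Cd33 (0.92), Arrb2 (0.92), Rgs2 (0.91), Scamp2 (0.91) and C3ar1 (0.90), and among members most like Hsp90b1 (0.68). Hspb1 was most like Emcn (0.92), Tinagl1 (0.91), Car4 (0.90), Abhd2 (0.90) and Esam (0.89). Against the summed immediate early list the correlation was 0.83 for the pair, 0.83 for Dnajb1, 0.58 for Hspa5, 0.23 for Hspa8, 0.23 for Hsp90b1, 0.09 for Hspb1, -0.48 for Hsp90aa1 and -0.60 for Hsph1. Across profiles, then, the pair and Dnajb1 tended to be higher where immediate early genes were higher. Naive microglia-like cells held the highest list sums, 61450 CPM in TRAIL+ and 61090 in TRAIL-, with the pair at 1071 and 946 CPM. Between EAE and naive, the pair and the list had opposite orders in microglia-like cells of both fractions and in endothelial-like cells. They had the same order in pericyte-, oligodendrocyte- and choroid-like cells. Between EAE fractions the order was the same in microglia- and monocyte- or dendritic-like cells. Between naive fractions it was the same in microglia- and astrocyte-like cells and opposite in endothelial-like cells. These orders give direction only, whatever the size of the difference. Naive microglia-like list sums were nearly level, and the pair's TRAIL- microglia-like disease direction turned without cluster 4. In EAE TRAIL- and naive TRAIL-, the pair rested on 3 and 35 UMIs in choroid-like and 29 and 21 in oligodendrocyte-like cells. Astrocyte-like cells held 35 UMIs in naive TRAIL+ and 26 in naive TRAIL-.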

How the data were processed

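Barcode-by-gene UMI counts, as deposited by the authors, were used without scaling by them. Per the submitters' processing notes, reads were aligned with Bowtie to GRCm38, with no version or annotation given. The tables list barcodes from 100 UMIs. The 9 members, the marker lists and the chaperone lists were chosen with earlier results of these data known.

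Barcodes with at least 500 UMIs and at most 20% mitochondrial UMIs were kept, and doublets were removed per library with Scrublet in scanpy 1.11.5 (expected rate 5%). Counts scaled to 10000 were clustered (2000 variable genes, 30 components, 15 neighbours, Leiden resolution 1 with leidenalg 0.10.2). A cluster was named from the marker list with most genes among its first 100 by fold (at least 2, with 3 detected in 20% of cells). One cluster of 26 barcodes stayed unnamed. Counts were summed per class and library (at least 30 cells and 20000 UMIs) and divided by the sum to give CPM. Of the gene columns 98.9% matched a GENCODE symbol. Levels carry exact Poisson and ratios and shares exact Clopper-Pearson 95% intervals, which cover counting error only and treat UMIs as independent. Compared were genes averaging 50 CPM or more with 40 UMIs over both groups, and 1.5-fold was counted as apart. Shares used cells thinned to 500 UMIs. Named genes were the members, up to 3 list genes per direction and comparison with the largest ratios, and the 5 genes most like the pair, Hspa5 and Hspb1. Fos, Jun, Bag3, Cct8 and Tnfsf10 values beyond that rule were chosen after their values were seen. The ratio step was tested on simulated Poisson counts, which hold no variation between cells, animals or libraries. Its rates therefore cover counting error only and cannot give the rate of false calls in the real comparisons. In the TRAIL+ microglia-like disease comparison (3205 genes) it called 100% of genes changed 2-fold up and 98% of those at a ratio of 0.5. None of 3005 unchanged genes was called there. In the pericyte-like one (3840 genes) it called 92%, 90% and 7.66% of 3640. Alternatives were TMM (edgeR 4.0.16) and median-of-ratios (DESeq2 1.42.0) scaling, 1000 UMIs, 10% mitochondrial UMIs, doublets kept, cells weighted equally, 2 other class rules, a fold of 2 and other CPM minimums. Shares were recomputed without thinning.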

Additional observations from a re-analysis of the deposited data

Results flagged for a closer look

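Between EAE TRAIL- and naive TRAIL-, several members pointed in opposite directions in different cell classes, in each case by at least 1.5-fold; with 1 library per group these differences were not tested. Hspa1a was at a ratio of 1.57 in endothelial-like cells and 0.503 in pericyte-like cells. Hspa1b was at 2.01 in microglia-like cells and 0.526 in pericyte-like cells. Dnajb1 was at 1.51 in endothelial-like cells, against 0.631 in the microglia-like class and 0.595 in choroid plexus epithelium-like cells, the last with an interval that included 1 (0.275 to 1.185). The Hspa1 pair was at 1.51 in microglia-like cells and 2.22 in oligodendrocyte-like cells, against 0.515 in pericyte-like cells. Without cluster 4 the microglia-like ratios were 0.542 for Hspa1b and 0.653 for the pair, the direction seen in pericyte-like cells.

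Barcodes under 500 UMIs, which entered no comparison, also held these transcripts. Hspb1 stood there at 32.5 CPM in EAE TRAIL+, 739 in EAE TRAIL-, 73.3 in naive TRAIL+ and 1021 in naive TRAIL-. The Hspa1 pair stood at 1600 CPM in EAE TRAIL+, 1420 in EAE TRAIL-, 858 in naive TRAIL+ and 1838 in naive TRAIL-.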

How the results depend on the processing

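No replicate could be left out, because each group was 1 library. No paired analysis was possible because each group has 1 library, which leaves fewer than 2 numbers to pair. Of 732 recomputed member ratios, 691 stayed within their interval, 38 moved and 3 turned. Moved were 146 of 180 recomputed member shares of cells, 40 of 360 member levels, 31 of 109 list counts and 21 of 98 counts of members past the fold. The only alternative for shares was to leave out the thinning. That can only raise a share or leave it level, so the moves of shares were largely set in advance. Leaving out cluster 4 turned the pair's TRAIL- microglia-like disease ratio to 0.653 and that of Hspa1b to 0.542, and gave 2.15 for the TRAIL+ disease ratio and 3.73 for the EAE fraction ratio, with 4 members past the mark. Assigning classes by the largest marker share turned the astrocyte-like Dnajb1 ratio to 1.01. The cause was not tested.

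Other ratios of the pair moved to 2.68 (TRAIL+ microglia-like disease, cells weighted equally), 1.69 and 1.43 (TRAIL- microglia-like and endothelial-like disease, at least 1000 UMIs), and 1.77 and 1.93 (monocyte- or dendritic-like fractions, by marker share and with at least 1% own markers). Of the 2 members counted in TRAIL- microglia-like disease, 1 was counted with TMM scaling, by marker share, with at least 1% own markers or at a fold of 2, and 4 at a maximum of 10% mitochondrial UMIs. Of the 2 endothelial-like members, 1 was counted with doublets kept or by marker share, and 0 with cells weighted equally or at a fold of 2. At a fold of 2, 0 of the 4 pericyte-like members and 1 of the 2 in the EAE microglia-like fractions were counted. At 1000 UMIs, 1 member instead of 0 was counted between naive microglia-like fractions.

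Of 109 recomputed counts of all genes past the fold, 17 moved by over 1.5 times: at a fold of 2 to 92, 528, 172, 270, 159 and 267 (disease: TRAIL+ and TRAIL- microglia-like, endothelial-, pericyte-, oligodendrocyte- and choroid-like) and 90, 386, 35, 708 and 304 (fractions: EAE microglia- and monocyte-like, naive microglia-, endothelial- and astrocyte-like), against 447, 1311, 789, 908, 377 and 684, and 488, 1022, 304, 1535 and 594, at 1.5-fold in the same order. With a minimum of 10 CPM they came to 1673 and 1737 (TRAIL+ microglia-like and endothelial-like disease) and 2351, 1895 and 2376 (EAE and naive microglia-like and naive endothelial-like fractions), and without cluster 4 to 967 (EAE microglia-like fractions). Scaling moved the median of all genes by no more than 0.08 (log2), except 0.19 in oligodendrocyte-like cells. Too few cells remained for oligodendrocyte- and astrocyte-like ratios at 10% mitochondrial UMIs, for naive endothelial- and astrocyte-like ratios at 1000 UMIs, and for astrocyte-like ratios with at least 1% own markers. Low counts limit Hsph1, also in endothelial-like cells, Hspb1 outside the vessel classes, and the pair in choroid-, oligodendrocyte- and astrocyte-like cells.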
